A study of Mus musculus with 10 samples.

Results

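Brain endothelial genes were examined in the hippocampus of old mice: Cldn5, Pecam1, Flt1, Kdr, Tek, Tie1, Cdh5, Slc2a1, Bsg and Itm2a. They are 10 of the 8251 genes that the array's annotation names by 1 symbol, and every probe set assigned to 1 of them and to no other gene was taken. That gave 12 probe sets, 2 each for Flt1 and Tie1 and 1 for each other gene, and no member was without one. A probe set is a group of short probes on an Affymetrix array that together report 1 transcript. Total RNA was taken from hippocampi of C57BL/6 males at 30 months of age, of which 5 were on a long-term calorie restricted diet and 5 on a control diet. Each mouse was measured on 1 array. How strict the restriction was, and when it began, is not stated by the labels. In RNA of a whole tissue, fewer endothelial cells and less RNA per endothelial cell cannot be told apart.

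Endothelial cells line the capillaries of the brain and form the blood-brain barrier. They are sealed to each other by tight and adherens junctions, survive on signals through the VEGF and angiopoietin receptors, and carry glucose and other nutrients from the blood by dedicated transporters. Because they make up a small part of the tissue, many of their transcripts are rare in RNA from a whole brain region.

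Signal was the deposited intensity, and a probe set was tested where its mean log2 signal over all arrays was at or above 6.85, the 40th percentile. Of the 12 probe sets 7 were tested, 1 each for Cldn5, Pecam1, Flt1, Kdr, Slc2a1, Bsg and Itm2a. The other 5, for Tek, Cdh5, both of Tie1 and the second of Flt1, lay below that level. So 3 genes usually taken as defining endothelial cells, Tek, Tie1 and Cdh5, had only dim probe sets here, and the label rests mainly on the others. Slc2a1 and Bsg are also made by other cells of the brain, and Pecam1 by blood platelets and white cells. The tissue label was checked with 12 transcripts of hippocampal neurons, of which 9 were bright enough to be tested.

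None of the 7 tested endothelial genes passed the threshold in either direction: 0 were higher and 0 lower at a limma adjusted p under 0.05, and 0 had an unadjusted p under 0.05. Among all 7453 tested probe sets 11.8% passed, 4.11% higher and 7.74% lower, and 31.6% had an unadjusted p under 0.05. Of those that passed 306 were higher and 577 lower, but 575 and 266 with each array centred on its median, and 321 and 282 under quantile normalization. In none of the 7 were the calorie restricted and control signals apart, while they did not overlap in 14.3% of all tested probe sets. A relative change below is the log2 difference of calorie restricted mice from control mice, less the median of that difference over the tested probe sets (-0.15). The limma p-values test the change before that median is taken off. Of the 7 genes 4 had a change above that median and 3 below it. Their median relative change was 0.25, beside 0.03 over the 5695 genes tested. The SD over calorie restricted mice exceeded that over control mice in 4 of the 7 (57.1%), beside 76% of all tested probe sets. By array, the median deviation of the 7 from their control means was -0.28 to 0.40 in calorie restricted mice and -0.29 to 0.33 in control mice. A change that misses the threshold does not show that the diets were alike, so the 95% interval is given for each gene.

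**Figure D1:**
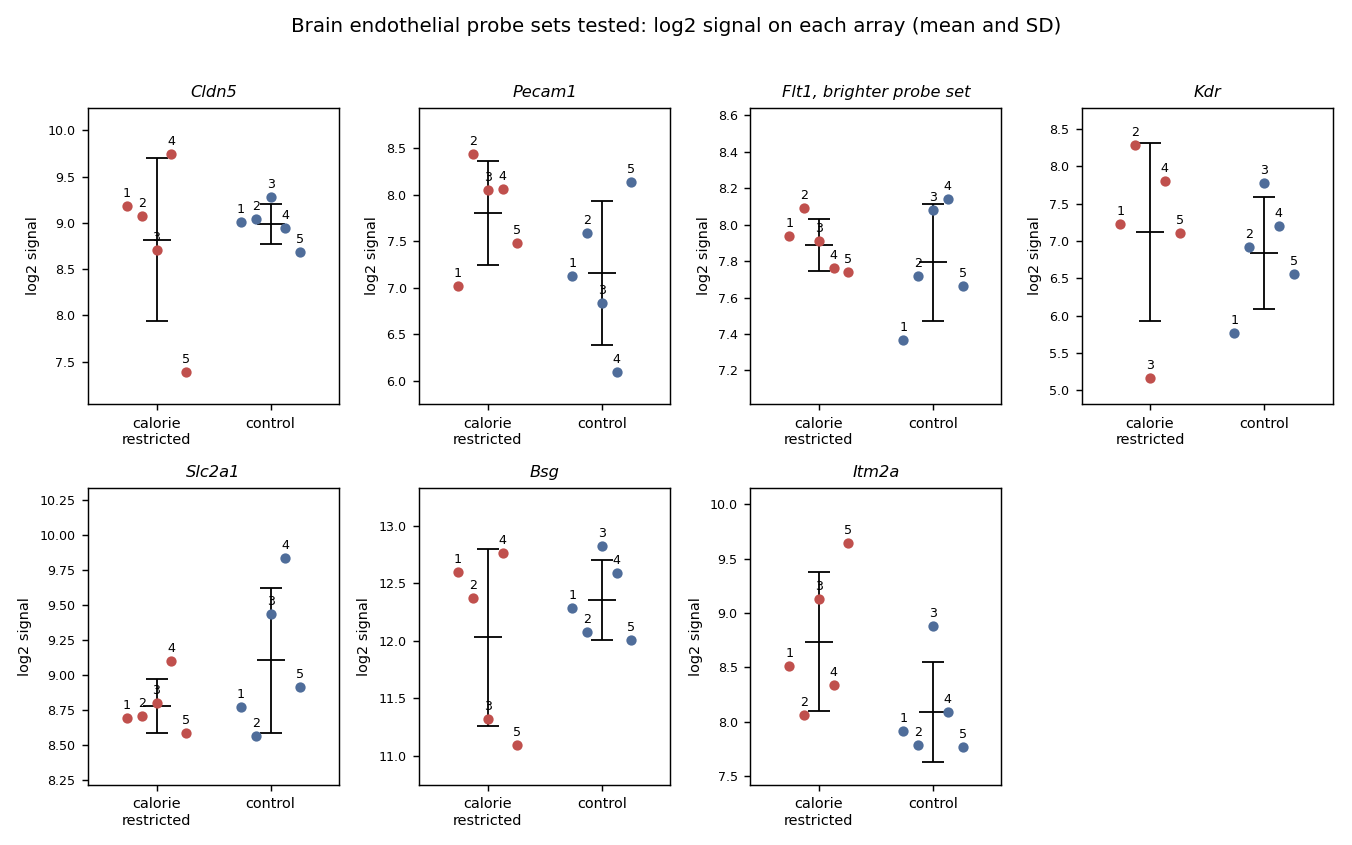
Log2 signal of the 7 tested brain endothelial probe sets on each array, calorie restricted mice on the left and control mice on the right of each panel; points are mice, labelled by replicate number, and bars are the mean and SD of 5 mice. The groups overlap in every panel. The widest calorie restricted bar is that of Kdr, where replicate 3 is lowest. For Cldn5 the bar spans a high replicate 4 and a low replicate 5, and for Bsg replicates 3 and 5 are low.

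Array quality differed between the diets and stands beside each of these values. The array carries separate probes for the beginning and the end of the Gapdh and Actb messages, and their ratio climbs when RNA is degraded. The mean log2 ratio of the 3' to the 5' signal was 2.88 ± 2.57 in calorie restricted mice, against 0.16 ± 0.24 in the control mice (SD, n = 5 per diet; exact two-sided permutation p = 0.00794, the smallest that 252 splits allow, adjusted p = 0.0106 over 4 measures). Calorie restricted replicates 3 and 5 had 5.20 and 6.11, while replicates 1, 2 and 4 had 0.79, 0.78 and 1.52. The bacterial spike-in probe sets averaged 13.05 ± 0.47 on the log2 scale in calorie restricted mice, against 11.12 ± 0.56 in the control mice (SD; same exact permutation p, 0.00794, and adjusted p, 0.0106). Another control transcript encodes the transferrin receptor, which endothelial cells use to take up iron. Its log2 ratio of 3' to 5' signal was 1.85 ± 1.58 in calorie restricted mice, against 1.29 ± 0.39 in the control mice (SD), a difference that missed the threshold (exact permutation p = 0.571; adjusted p = 0.571).

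The barrier genes of the tested set were Cldn5, Slc2a1 and Bsg. Cldn5 encodes claudin 5, the main tight junction strand protein of brain capillaries. Its signal in calorie restricted replicates 1 to 5 was 582, 539, 418, 857 and 168, against 514, 528, 623, 493 and 410 in control replicates 1 to 5. Replicate 4 lay above and replicate 5 below all control mice, and the other calorie restricted signals lay among those of the control mice. The relative log2 change was -0.02 ± 0.36 (SE, n = 5 per diet; 95% interval -0.79 to 0.76), with a limma adjusted p of 0.765. The SD of the log2 signal of Cldn5 was 0.88 over calorie restricted mice, against 0.22 over control mice.

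Slc2a1 encodes GLUT1, the glucose transporter of the blood-brain barrier, which astrocytes make as well. Its signal was 413, 418, 445, 547 and 384 in calorie restricted mice, against 437, 378, 692, 911 and 481 in control mice. The calorie restricted signals lay close together within the range of the control signals, whose upper end was set by replicates 3 and 4. The relative change was -0.17 ± 0.25 (SE; 95% interval -0.71 to 0.36), with a limma adjusted p of 0.376. Its fold against the median was 0.886, with an interval of 0.612 to 1.28.

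Bsg encodes basigin, a membrane glycoprotein that escorts lactate transporters to the cell surface. Its signal was 6213, 5302, 2552, 6942 and 2190 in calorie restricted mice, against 5002, 4318, 7278, 6161 and 4118 in control mice. Calorie restricted replicates 3 and 5 lay below every control mouse, and replicates 1, 2 and 4 among them. The relative change was -0.17 ± 0.33 (SE; 95% interval -0.89 to 0.54; limma adjusted p = 0.510).

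The 250 bases before the RefSeq start of Cldn5 and Slc2a1, the genes of the junction and of glucose transport, are shown as the upstream sequence of these 2 barrier genes, 5' to 3' (build GRCm38.p6, both on the plus strand; Cldn5 at chr16:18776597-18776846 and Slc2a1 at chr4:119108495-119108744). Capitals mark the GC box GGGCGG on either strand.
Cldn5: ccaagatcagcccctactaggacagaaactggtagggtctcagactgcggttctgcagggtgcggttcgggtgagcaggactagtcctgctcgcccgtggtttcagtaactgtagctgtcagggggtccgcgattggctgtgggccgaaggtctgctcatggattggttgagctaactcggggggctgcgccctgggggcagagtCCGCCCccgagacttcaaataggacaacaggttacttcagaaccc
Slc2a1: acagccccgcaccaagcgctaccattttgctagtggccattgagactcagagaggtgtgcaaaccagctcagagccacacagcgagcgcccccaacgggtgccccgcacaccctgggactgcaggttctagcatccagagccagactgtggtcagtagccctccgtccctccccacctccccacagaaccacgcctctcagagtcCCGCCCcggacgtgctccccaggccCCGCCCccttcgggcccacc
RefSeq upstream sequence was at hand for 7 of the 10 genes. The GC box was found in 5 of these 7, Cldn5, Flt1, Kdr, Slc2a1 and Itm2a, beside 32.7% of 32851 upstream windows of the same length. Searched in the same way, the ETS core (AGGAA or CGGAA) occurred in 5, Flt1, Kdr, Tek, Tie1 and Itm2a, beside 71.4% of all windows. CCAAT occurred in Cldn5 alone, beside 33.8% of windows, and TATAAA in Flt1 alone, beside 12.4%. The GC content of the windows was 59.6% for Cldn5 and 66.4% for Slc2a1, beside a median of 52.4% over all. These are matches of letters, not measured sites.

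The VEGF receptors were Flt1 and Kdr. Flt1 encodes VEGF receptor 1, which binds VEGF tightly and signals weakly. Its tested probe set had signals of 245, 273, 241, 217 and 214 in calorie restricted mice, against 165, 211, 271, 282 and 203 in control mice. All 5 calorie restricted signals were above the control median and all lay below the highest control mouse. The relative change was 0.25 ± 0.22 (SE; 95% interval -0.23 to 0.73; limma adjusted p = 0.793). The other probe set of Flt1, below the signal filter, had 171, 66.0, 215, 230 and 83.2 in calorie restricted mice, against 99.7, 79.3, 75.1, 77.6 and 108 in control mice. There replicates 1, 3 and 4 lay above and replicate 2 below every control mouse. With no filter on signal, and less the median change of that fit (-0.22), its relative change was 0.87 ± 0.41 (SE; 95% interval -0.01 to 1.75; limma adjusted p = 0.345). Both probe sets of Flt1 thus had a positive relative change, and neither passed.

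Kdr encodes VEGF receptor 2, the main signalling receptor for VEGF in endothelial cells. Its signal was 149, 312, 35.8, 224 and 138 in calorie restricted mice, against 54.3, 121, 220, 147 and 94.1 in control mice. Calorie restricted replicates 2 and 4 were above every control mouse and replicate 3 below them all. The signals spanned 8.72-fold in calorie restricted and 4.05-fold in control mice. The relative change was 0.43 ± 0.57 (SE; 95% interval -0.80 to 1.66; limma adjusted p = 0.762), the widest interval among the 7 tested genes. The mean log2 signal of Kdr was 7.12 in calorie restricted mice and 6.84 in control mice. The control mean lay just below the filter level of 6.85, so Kdr was tested through its calorie restricted signals.

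The angiopoietin receptor genes Tek and Tie1 had dim probe sets below the signal filter. Tek encodes Tie2, the receptor for angiopoietins, which keeps vessels quiescent. Its signal was 188, 53.3, 65.3, 130 and 140 in calorie restricted mice, against 94.6, 123, 148, 97.8 and 96.3 in control mice. Replicate 1 lay above and replicates 2 and 3 below all control mice. With no filter its relative change was 0.13 ± 0.40 (SE; 95% interval -0.73 to 1.0005; limma adjusted p = 0.913). Tie1 is the related orphan receptor that modulates Tie2. The dimmer Tie1 probe set had 24.6, 29.6, 12.5, 157 and 15.8 in calorie restricted mice, against 71.0, 55.5, 196, 58.2 and 104 in control mice. All calorie restricted mice but replicate 4 were below every control mouse. With no filter the relative change was -1.31 ± 0.66 (SE; 95% interval -2.75 to 0.12), with a limma unadjusted p of 0.0373 and an adjusted p of 0.168. The brighter Tie1 probe set had 101, 7.80, 69.7, 99.1 and 165 in calorie restricted mice, against 34.4, 118, 133, 96.1 and 52.0 in control mice. Its calorie restricted signals lay on both sides of the control range, and its relative change was -0.09 ± 0.74 (SE; 95% interval -1.70 to 1.51; limma adjusted p = 0.821). With no filter on signal 0 of the 12 member probe sets passed, beside 6.36% of all 12422, and 1 had an unadjusted p under 0.05, beside 25.4%.

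**Figure D2:**
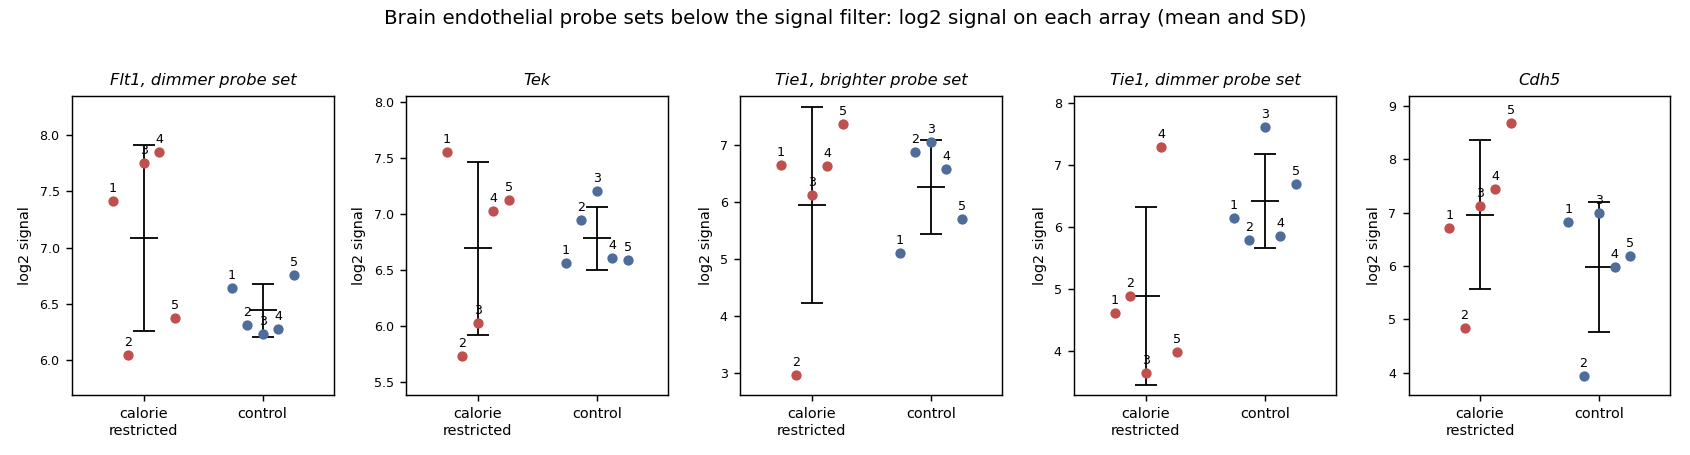
Log2 signal of the 5 brain endothelial probe sets below the signal filter on each array, calorie restricted mice on the left and control mice on the right of each panel; points are mice, labelled by replicate number, and bars are the mean and SD of 5 mice. The dimmer probe set of Tie1 has 4 calorie restricted mice below every control mouse, and replicate 2 stands alone at the bottom for the brighter one.

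The junction and surface molecules Cdh5, Pecam1 and Itm2a were measured on 1 probe set each. Cdh5 encodes VE-cadherin, the adherens junction protein of endothelium, and was too dim to be tested. Its signal was 105, 28.7, 139, 175 and 412 in calorie restricted mice, against 113, 15.3, 128, 63.4 and 72.6 in control mice. Replicates 3, 4 and 5 lay above all control mice, and replicate 2 lay below all but 1 of them. With no filter the relative change was 1.20 ± 0.71 (SE; 95% interval -0.34 to 2.74; limma adjusted p = 0.414).

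Pecam1 encodes CD31, an adhesion molecule of endothelial contacts that platelets and leukocytes carry too. Its signal was 130, 347, 265, 267 and 179 in calorie restricted mice, against 140, 192, 115, 68.4 and 283 in control mice. Of the calorie restricted mice 4 were above the control median and 1, replicate 2, above every control mouse. The relative change was 0.80 ± 0.40 (SE; 95% interval -0.07 to 1.67; limma adjusted p = 0.284), or 1.74-fold. Under quantile normalization 2 of the 7 genes, Pecam1 and Itm2a, had an unadjusted limma p under 0.05, beside 27.9% of all, and 0 passed, beside 8.09%. Of 15 blood cell markers 3 were tested, and 0 passed or had an unadjusted limma p under 0.05. Among them Hba-a1, a haemoglobin gene, had -0.19 ± 0.41 (limma adjusted p = 0.583). The others were Alas2 and, outside the naming rule, S100a8. The platelet genes of the list were not tested, so this count says little of the platelets and leukocytes that carry Pecam1. The blood list summed to 3968 to 8148 in calorie restricted mice and 4129 to 14020 in control mice.

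Itm2a encodes an integral membrane protein enriched in brain endothelium. Its signal was 365, 267, 559, 324 and 801 in calorie restricted mice, against 242, 221, 471, 273 and 218 in control mice. All 5 calorie restricted mice were above the control median, and replicates 3 and 5, those with the highest ratio of 3' to 5' signal, were above every control mouse. The relative change was 0.80 ± 0.32 (SE), or 1.74-fold, with a 95% interval of 0.10 to 1.51. Its limma p, against a change of 0 before the median is taken off, was 0.0687 (adjusted p = 0.191). With each array centred on its median, the limma p was 0.0277 and the adjusted p 0.116. The median change of that fit was 0.06, and its p also tests the change before that median is taken off. Pecam1 had a limma p of 0.0487 in the same fit. An unadjusted p under 0.05 was thus seen there for 2 of the 7 genes, beside 30.7% of all tested probe sets.

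The 7 tested genes differed in how they lay on the 2 calorie restricted arrays with the highest 3' to 5' ratio. On replicates 3 and 5 the mean log2 signal of Kdr, Bsg and Cldn5 was 1.64, 1.37 and 1.28 lower than on replicates 1, 2 and 4, and that of Itm2a was 1.08 higher. For Kdr the gap came from replicate 3, at 35.8, while replicate 5, at 138, lay beside replicate 1 at 149. For Cldn5 it rested mainly on replicate 5, at 168, while replicate 3, at 418, lay within the control range. The gaps of Pecam1, Flt1 and Slc2a1 between the same arrays were -0.07, -0.11 and -0.14. A gap of more than 1 was thus seen in 4 of the 7, beside 20.5% of all tested probe sets, whose median gap was 7e-04. This split follows a measured array property and was given no test. On replicates 1, 2 and 4 the mean log2 signal was above that of the control mice in 6 of the 7 genes, by 0.14 to 0.93, while Slc2a1 had -0.27. The median of the same difference over all tested probe sets was -0.10.

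Without replicates 3 and 5 the relative change of Cldn5 was 0.45 (95% interval -0.0037 to 0.90), that of Kdr 1.03 (0.02 to 2.05) and that of Bsg 0.32 (-0.11 to 0.75). Itm2a had 0.32 (-0.30 to 0.94) on the same arrays. None of the 7 passed (limma adjusted p from 0.204 for Kdr to 0.758 for Flt1), beside 10.5% of all tested probe sets, and 0 had an unadjusted p under 0.05, beside 29.4%. Slc2a1 had -0.17 and Flt1 0.24, beside -0.17 and 0.25 on all arrays. With the 3' to 5' ratio as a covariate Cldn5 had 0.70 (95% interval 0.04 to 1.35), Kdr 1.26 (-0.10 to 2.61), Bsg 0.57 (0.11 to 1.03) and Itm2a 0.14 (-0.56 to 0.83). Again none passed (adjusted p from 0.194 for Bsg to 0.945 for Itm2a), beside 4.47% of all. Bsg alone had an unadjusted p under 0.05 there, 0.0423, beside 23.6% of all. The sign of the relative change of Cldn5 and Bsg thus differed with the treatment of these 2 arrays. That of Cldn5, near 0 in the main fit, also turned with all arrays kept, to 0.074 under quantile normalization. The part of RNA quality in these values was not tested further.

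**Figure D3:**
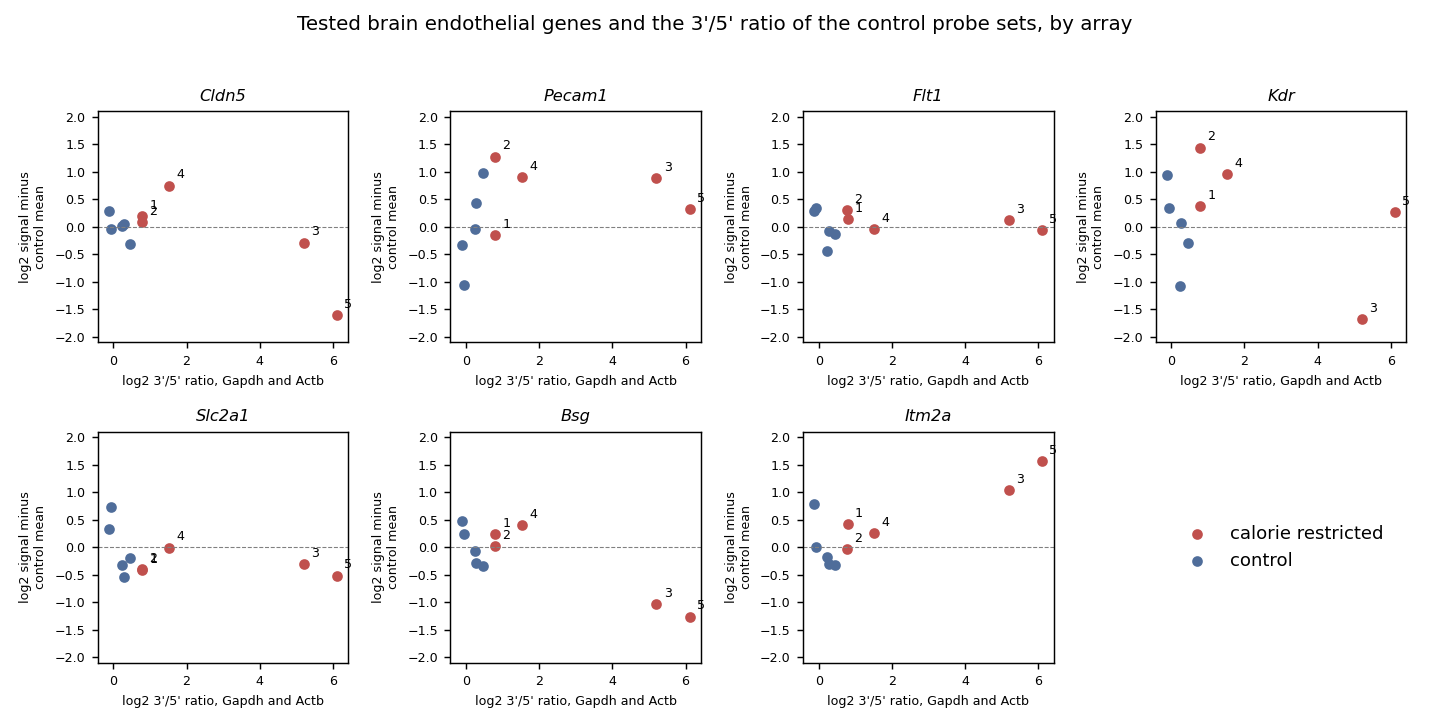
Log2 signal of each tested gene less its control mean, against the mean log2 ratio of 3' to 5' signal of the Gapdh and Actb control probe sets; red points are calorie restricted mice with their replicate numbers, blue points control mice. Replicates 3 and 5 stand far to the right at 5.20 and 6.11, low for Bsg, high for Itm2a and near the other mice for Flt1 and Slc2a1, while only replicate 5 is low for Cldn5 and only replicate 3 for Kdr.

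**Figure D4:**
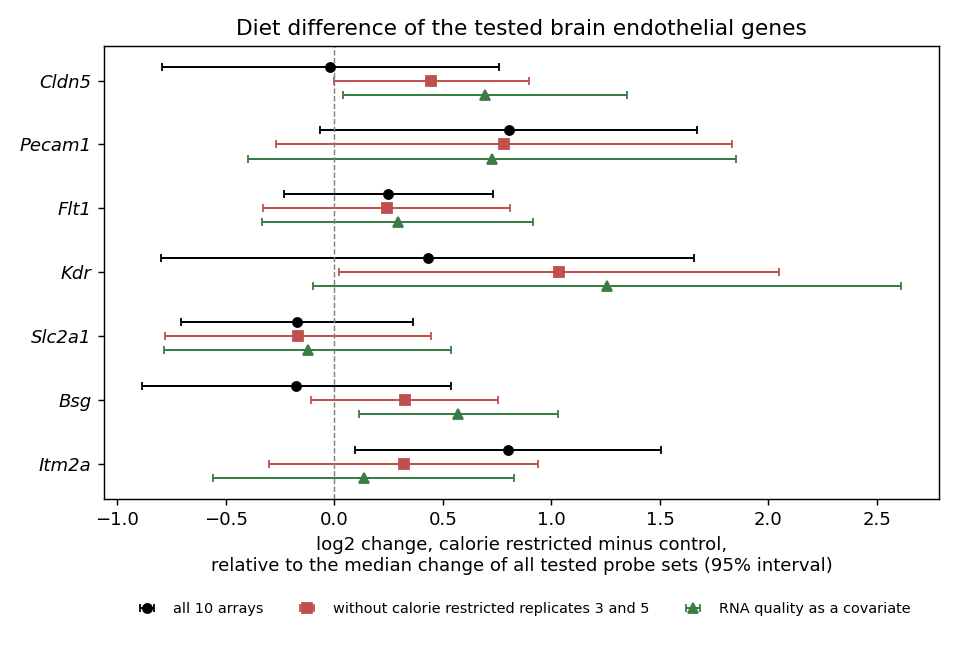
Log2 change of the 7 tested genes, calorie restricted minus control, less the median over all tested probe sets, with 95% intervals from limma; black circles are all 10 arrays, red squares leave out calorie restricted replicates 3 and 5, and green triangles have the ratio of 3' to 5' signal as a covariate. Cldn5 and Bsg are at -0.02 and -0.17 on all arrays and at 0.45 and 0.32 without replicates 3 and 5.

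With the 3' to 5' ratio and the spike-in signal both as covariates, the relative change of Kdr was 2.50 ± 1.23 (SE). Bsg had 1.47 ± 0.32, Cldn5 1.42 ± 0.58 and Slc2a1 1.22 ± 0.46. Itm2a had 1.02 ± 0.60, Flt1 0.83 ± 0.57 and Pecam1 -0.18 ± 1.02. None passed (limma adjusted p from 0.159 for Bsg to 0.930 for Pecam1), nor did any of the 7453 probe sets. An unadjusted p under 0.05 was seen for 3 of the 7, Bsg, Slc2a1 and Cldn5, beside 12.2% of all. Those covariates together accounted for diet with an R2 of 0.851, and the spike-in signal alone with 0.813. Little of the diet contrast was thus left in this fit to estimate these changes from.

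The vascular and cell type lists below held 103 tested genes, of which 2 rose and 13 fell. Their counts stand beside the 11.8% of all tested probe sets that passed, 4.11% higher and 7.74% lower. List counts take 1 probe set per gene, and so counted 233 of the 5695 genes tested were higher and 367 lower. With each array centred on its median, 6 of these genes passed as higher and 8 as lower. Among the ligands and partners of the receptors, of 6 tested genes among 15 VEGF and angiopoietin ligands, co-receptors and regulators, 0 rose, 1 fell and 5 did not pass, with a median relative change of -0.02. The one that fell was Epas1, which encodes the hypoxia-inducible factor HIF-2 alpha, prominent in endothelium. Epas1 had 143, 215, 27.2, 112 and 45.7 in calorie restricted mice, against 309, 413, 380, 346 and 203 in control mice. Its mean log2 signal in calorie restricted mice, 6.40, lay below the level of the filter. The relative change of Epas1 was -1.77 ± 0.51 (SE; limma adjusted p = 0.0342), with the lowest signals again on replicates 3 and 5. With the 3' to 5' ratio as a covariate its value was -0.62, short of the threshold (limma adjusted p = 0.303), and under quantile normalization the adjusted p was 0.0558. Its adjusted p was 0.0509 to 0.0817 without control replicate 1, 2, 3 or 4 or without calorie restricted replicate 3, 4 or 5. Without calorie restricted replicates 3 and 5 together Epas1 passed, at -0.98 (limma adjusted p = 0.0462). Nrp1, a VEGF co-receptor, had -0.30 ± 0.23 (limma adjusted p = 0.190). Nrp1 passed with the 3' to 5' ratio as a covariate, at -0.78 (adjusted p = 0.0415). On the arrays other than calorie restricted replicates 3 and 5 Nrp1 also passed, at -0.63 (adjusted p = 0.0326).

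Of 9 tested genes among 19 of the TGF-beta, Notch and Wnt pathways of vessels, 0 rose, 1 fell and 8 did not pass, with a median of 0.09. Fzd4, the receptor for norrin in the retinal and brain vasculature, fell by 0.62 ± 0.19 relative to the median (SE; limma adjusted p = 0.0281). Its signal was 650, 465, 489, 408 and 444 in calorie restricted mice, against 671, 974, 1016, 874 and 680 in control mice, with no overlap. It did not pass when each array was centred on its median (adjusted p = 0.0754), nor under quantile normalization (adjusted p = 0.0600), nor with the 3' to 5' ratio as a covariate, where it had -0.58 (adjusted p = 0.111). Without control replicate 2, 3 or 4 or calorie restricted replicate 3 or 4 the adjusted p was 0.0562 to 0.0754. Fzd4 passed without calorie restricted replicates 3 and 5 together, at -0.63 (limma adjusted p = 0.0488). Lef1, a transcription factor of Wnt signalling, had -0.73 ± 0.34 (limma adjusted p = 0.105).

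Counted by the brightest tested probe set of each gene, junction and transport genes gave no calls on all arrays as deposited. Of 11 tested junction and adhesion genes 0 rose and 0 fell, 2 had an unadjusted limma p under 0.05, and the median relative change was 0.01. For Vcam1, a gene outside the naming rule, another, dimmer probe set passed as lower. Its brightest probe set had 0.25 (limma adjusted p = 0.854). Tjp1, the scaffold ZO-1 that anchors claudins, had 0.66 ± 0.18 (SE; limma adjusted p = 0.0820), and Jup, or plakoglobin, had -1.43 ± 0.58 (adjusted p = 0.0888). Tjp1 passed with the arrays centred (adjusted p = 0.0398) and without calorie restricted replicate 2 (adjusted p = 0.0392), and had 0.34 with the 3' to 5' ratio as a covariate (adjusted p = 0.454). Jup passed without calorie restricted replicate 2 (adjusted p = 0.0379), and its calorie restricted mean of 6.76 lay below the filter level. Jup was lowest on calorie restricted replicates 3 and 5, with 22.9 and 84.8, and had 221, 291 and 119 on replicates 1, 2 and 4, against 211 to 463 in control mice. Of 10 tested barrier transporters and receptors 0 rose and 0 fell, 2 had an unadjusted limma p under 0.05, and the median was 0.14. Slc7a5, the large neutral amino acid transporter LAT1, had -0.31 ± 0.20 (limma adjusted p = 0.127). The glutamine transporter gene Slc38a5 had -0.19 ± 0.16 (adjusted p = 0.150). The 0 of 11 and 0 of 10 passed, by the brightest probe set, stand beside 11.8% of all tested probe sets. The 2 and 2 at an unadjusted p under 0.05 stand beside 31.6%.

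Among 34 other endothelial genes 14 were tested, of which 1 rose, 0 fell and 13 did not pass, with a median of 0.26. The one that rose was Sparc, a secreted matrix protein that astrocytes and microglia also make. It had 1152, 1114, 1783, 2045 and 1330 in calorie restricted mice, against 785, 826, 735, 929 and 1007 in control mice, without overlap. Its relative change was 0.91 ± 0.20 (SE; limma adjusted p = 0.0344), and 0.80 without replicates 3 and 5, where it did not pass (adjusted p = 0.0580). It had 0.73 with the 3' to 5' ratio as a covariate (adjusted p = 0.134), and adjusted p from 0.0675 to 0.0840 without any of control replicates 1 to 4 or calorie restricted replicates 3 and 4. Ly6e, a surface protein, had 0.85 ± 0.24 (adjusted p = 0.0697). Ly6e passed with the arrays centred (adjusted p = 0.0427) and without calorie restricted replicate 1 or 2 (adjusted p = 0.0459 and 0.0350). It had 0.29 under quantile normalization and 0.34 with the 3' to 5' ratio as a covariate (adjusted p = 0.372 and 0.527). Of 8 tested genes in a list of protein partners and relatives of the barrier membrane proteins, 0 rose and 1 fell, Atp1b2, a sodium pump subunit of astrocytes, at -2.12 ± 0.35 (limma adjusted p = 0.00648). The mean log2 signal of Atp1b2 was 6.80 in calorie restricted mice, below the filter level, and 9.08 in control mice, so it was tested through its control signals.

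Cells that touch the endothelium were read beside it. Pericytes wrap the capillaries, and of 12 pericyte and smooth muscle markers 5 were tested, of which 0 rose, 1 fell and 4 did not pass. Rgs5, a regulator of G protein signalling and a pericyte marker, had 281, 219, 179, 202 and 109 in calorie restricted mice, against 363, 494, 662, 584 and 355 in control mice. The groups did not overlap, and the relative change was -1.18 ± 0.28 (SE; limma adjusted p = 0.0176). With the 3' to 5' ratio as a covariate the value of Rgs5 was -0.74, short of the threshold (adjusted p = 0.112). Rgs5 passed without calorie restricted replicates 3 and 5, at -0.94, and under quantile normalization, at -1.03 (limma adjusted p = 0.028 and 0.0287). The summed signal of the list's probe sets was 1384 to 2521 in calorie restricted mice and 1801 to 3759 in control mice. Astrocyte endfeet cover the capillaries. Of 9 tested astrocyte genes 4 had a change above the median of all tested probe sets and 5 below it, with a list median of -0.17. By the threshold 0 of these genes rose and 4 fell. One of the 4 is Atp1b2, counted above, and another, the growth factor receptor gene Fgfr3, likewise lay below the filter level in calorie restricted mice, at 5.94, against 8.05 in control mice. Among the 4 Aqp4, the water channel of the endfeet, had -1.39 ± 0.44 (limma adjusted p = 0.0424). With the arrays centred the adjusted p of Aqp4 was 0.0565, and without any of the control replicates or calorie restricted replicate 3 or 4 it was 0.0601 to 0.101. With the 3' to 5' ratio as a covariate Aqp4 had -0.62 (adjusted p = 0.329). Aqp4 passed without calorie restricted replicates 3 and 5, at -0.97, and under quantile normalization, at -1.45 (limma adjusted p = 0.0153 and 0.0374). The astrocyte list summed to 23650 to 30180 in calorie restricted mice and 19000 to 25130 in control mice. None of 7 tested fibroblast and meningeal genes passed, 1 had an unadjusted limma p under 0.05, and the list summed to 7622 to 12160 in calorie restricted mice and 9333 to 15250 in control mice. Among 5 tested choroid plexus and ependymal genes 2 fell, among 8 microglial genes 2 fell, and among 9 neuronal genes 1 rose and 2 fell, beside 4.11% higher and 7.74% lower of all tested probe sets. All 5 tested choroid plexus and ependymal genes had a change below the median of all tested probe sets, with a list median of -1.36. The choroid plexus sum was 1351 to 15930 in calorie restricted mice and 3710 to 12770 in control mice. The part of these cells in the endothelial values was not tested.

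**Figure D5:**
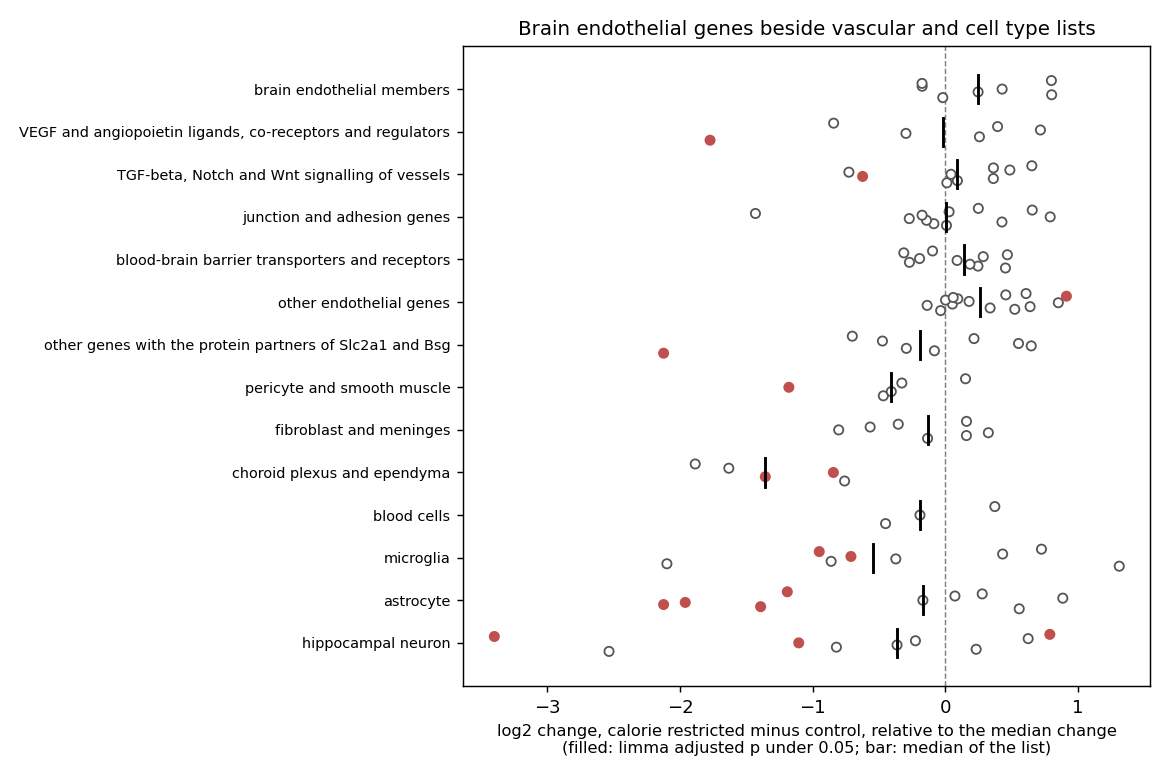
Log2 change of each tested gene, calorie restricted minus control, less the median over all tested probe sets, for the 7 brain endothelial genes in the top row and the vascular and cell type lists below; filled points passed at a limma adjusted p under 0.05, and bars are list medians. None of the endothelial points is filled, while Epas1 at -1.77, Fzd4 at -0.62 and Rgs5 at -1.18 are filled on the left and Sparc at 0.91 on the right.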

How the data were processed

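Hippocampal RNA of 5 calorie restricted and 5 control mice was measured on 10 arrays. The deposited intensity values, on a linear scale, were computed by the authors with MAS5, per the submitters' processing notes; the sources used here give neither its version nor its settings. Per the labels' protocols, Trizol RNA was turned into biotin-labelled cRNA from 5 ug. After trimming 2% at each end, every array averaged 500, so the trimmed mean had been equalised. The median log2 signal of the non-control probe sets still differed between the diets. It was 7.49 ± 0.18 in calorie restricted mice, against 7.84 ± 0.05 in control mice (SD; exact permutation p = 0.00794, adjusted p = 0.0106).

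Values under 1 (41 of 124880) were set to 1 before log2. The 66 control probe sets were left out; of 12422 others, 7453 passed the 40th percentile of mean signal. limma 3.58.1 in R 4.3.3 compared diets (lmFit, eBayes with trend), Benjamini-Hochberg adjusted over all 7453. Platform annotation gave 1 symbol for 10833 probe sets, updated through RefSeq for 10817, several for 396 and none for 1193. Gene lists use the brightest tested probe set per gene. The array number limits precision, and the script was tested on simulated data.

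Members and lists were chosen with earlier results of these data known. Besides members, the rule names each list's called genes and the 2 of smallest p, at most 6 a list, which gives 38 genes in all; the text names those it describes. The main fit had 24 alternatives, among them each of 10 arrays left out in turn and 2 settings added after seeing the data. Nothing beyond 1 mouse per array is known of how the mice were housed or batched.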

Additional observations from a re-analysis of the deposited data

Results flagged for a closer look

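One of the 24 sets of 5 arrays examined for the 12 endothelial probe sets held an array far from the rest. For the brighter probe set of Tie1 calorie restricted replicate 2 had a signal of 7.80, while the other 4 calorie restricted mice had 69.7 to 165. Its gap to the nearest of them was 0.718 of the whole log2 range, above the 0.71 set for 5 samples. About 1 in 20 such sets is picked out by chance, so 1 of 24 is no more than that. This probe set lay below the signal filter and entered no test of the main comparison.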

How the results depend on the processing

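In limma 0 of the tested endothelial probe sets passed under any of the 24 settings in which they were tested, leaving out single arrays included, and 0 of 12 passed with no filter. Over all probe sets the count was 883, but 253 to 1251 with 1 array left out, 333 with RNA quality as a covariate, 0 with RNA quality and spike-in signal or with spike-in signal alone (907 and 857 at an unadjusted p under 0.05), 33 with RNA quality and without calorie restricted replicates 3 and 5, and 1627 at an adjusted p under 0.1. Under quantile normalization 321 of 603 were higher, and with arrays centred on their median 575 of 841, against 306 of 883. With the replicate number as a block 540 passed and 0 endothelial ones; same-numbered mice correlated from -0.08 to 0.17 in their deviations and 1 of 5 correlated best with its own number, so the numbers were not taken as pairs. The vascular and cell type lists held 15 called genes of 103 (2 higher, 13 lower; 11.8% of all probe sets passed), 6 higher and 8 lower with arrays centred, 10 with the block (Fzd4 and Sparc among those lost, adjusted p 0.0643 and 0.0576 in limma), 4 to 19 with 1 array left out, 3 with RNA quality, 0 with both covariates or spike-in signal alone (limma) and 1 with RNA quality and without replicates 3 and 5. The endothelial median of 0.25 was 0.14 to 0.34 with 1 array left out, -0.19 under the 60th percentile filter, which left 4 genes, 1.22 with both covariates and 0.70 with spike-in signal alone.

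None of the endothelial changes that turned direction had passed. Cldn5 had 0.074 under quantile normalization, 0.053 with no filter, 0.34 with array weights, 0.70 with RNA quality, 1.42 with both covariates, 0.45 without replicates 3 and 5, 0.21 with RNA quality and without those replicates, 0.36 with spike-in signal, and -0.25 to 0.31 with 1 array left out. Bsg, in the same order from array weights on, had 0.19, 0.57, 1.47, 0.32, 0.58, 0.35 and -0.36 to 0.028. Slc2a1 had 1.22 with both covariates, 0.12 with RNA quality and without replicates 3 and 5, 1.02 with spike-in signal and -0.31 to 0.013 with 1 array left out. Pecam1 had -0.18, -0.44 and -0.025 under the first 3 of these. Flt1, Kdr and Itm2a kept a positive sign throughout, at 0.14 to 0.83, 0.14 to 2.50 and 0.14 to 1.84.

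Of the other genes, these turned. With both covariates Lef1 had 0.056, Slc7a5 0.70, Des 0.78, Fbln1 0.98, Lum 0.69, Folr1 0.16, Foxj1 0.030, Alas2 1.24, Hba-a1 2.45, Cd68 0.11 and Aqp4 0.26. With spike-in signal Nrp1 had 0.29, Lef1 0.49, Slc7a5 0.49, Des 0.014, Lum 0.46, Alas2 1.29 and Hba-a1 2.32. With RNA quality and without replicates 3 and 5 Jup had 0.63, Des 0.49, Fbln1 0.25, Alas2 1.62 and Hba-a1 0.16. Des had 0.092 with RNA quality, and Hba-a1 0.028 with array weights and -0.40 to 0.084 with 1 array left out. The cause was not tested. Dim signal limits Tek, Tie1, Cdh5 and Kdr most, and detection calls were not used here.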
